A study of Homo sapiens with 16 samples.

Results

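The regions described here are TOP2A cleavage regions found in K562 cells after genistein, set against those found after mitoxantrone. They were taken from 2 of the 5 region lists that the authors deposited, 1 list for each treatment. Regions on chromosomes 1 to 22 with a deposited value of at least 4 were kept, and overlapping genistein entries were joined. That left 390110 genistein regions and 190321 mitoxantrone regions, 580431 together, out of 1481258 in the whole series. A region counted as shared when it overlapped at least 1 bp of the other list. K562 is an established human line from a chronic myeloid leukaemia that carries the BCR-ABL1 fusion. Genistein-treated cells received 50 µM for 1 h and mitoxantrone-treated cells 2 µM for 1 h, both in 0.05% DMSO, so the times match and the doses differ. TOP2A was captured with an antibody from sonicated lysates, with no crosslinking step named in the protocol, and the DNA released from the captured complexes was amplified before library preparation. The labels give 2 genistein libraries and 1 mitoxantrone library out of 16 in all, and the authors pooled each treatment into 1 list. The lists of the DMSO vehicle, etoposide and p-benzoquinone are set beside them below, and belong to 3, 3 and 2 amplified libraries. Etoposide was given for 1 h and p-benzoquinone for 4 h, at doses that differ from those of genistein and mitoxantrone. No region has a replicate value, so no p-value can be given, and every interval below covers counting error only.

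TOP2A, or DNA topoisomerase II alpha, opens both strands of a DNA duplex, passes another duplex through the gap and reseals the cut, and stays covalently bound to the cut ends while it does so. TOP2 poisons raise the number of these cleavage complexes, which can become double-strand breaks when they are processed. Genistein is a soy isoflavone that also inhibits tyrosine kinases and binds oestrogen receptors. Mitoxantrone is an anthracenedione anticancer drug that intercalates into DNA. Treatment with TOP2 poisons is known for secondary leukaemias with translocations of KMT2A, and after mitoxantrone also of PML and RARA.

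A few promoter windows show what these regions look like at base level. Each window runs from 250 bases before to 50 bases after a gene's start, as RefSeq gives it on GRCh38.p14, and is printed 5′ to 3′ on the strand of the gene. In the first 5 windows, the ones with the strongest overlaps of the lists, capitals mark the bases that lay in both a genistein and a mitoxantrone region. They belong to DAOA (chr13:105465617-105465916, plus strand), a D-amino acid oxidase regulator gene, and TGFBR2 (chr3:30606106-30606405, plus strand), which encodes a TGF-beta receptor. The others are JADE2 (chr5:134523759-134524058, plus strand), a histone acetylation complex gene, CCR6 (chr6:167111545-167111844, plus strand), a chemokine receptor gene, and UBL5 (chr19:9827668-9827967, plus strand), which encodes a ubiquitin-like protein.
DAOA: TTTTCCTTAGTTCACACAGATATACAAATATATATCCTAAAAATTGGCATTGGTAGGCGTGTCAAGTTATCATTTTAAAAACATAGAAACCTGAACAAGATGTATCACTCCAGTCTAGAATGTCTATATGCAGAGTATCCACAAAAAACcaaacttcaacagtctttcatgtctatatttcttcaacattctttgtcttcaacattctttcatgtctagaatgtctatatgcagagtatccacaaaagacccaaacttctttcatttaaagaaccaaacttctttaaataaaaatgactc
TGFBR2: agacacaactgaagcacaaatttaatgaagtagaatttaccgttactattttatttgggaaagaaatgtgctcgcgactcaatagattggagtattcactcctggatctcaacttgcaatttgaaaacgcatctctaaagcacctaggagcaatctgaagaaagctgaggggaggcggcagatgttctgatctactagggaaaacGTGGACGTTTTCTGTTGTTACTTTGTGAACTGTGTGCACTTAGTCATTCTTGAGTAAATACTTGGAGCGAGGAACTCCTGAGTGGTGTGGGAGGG
JADE2: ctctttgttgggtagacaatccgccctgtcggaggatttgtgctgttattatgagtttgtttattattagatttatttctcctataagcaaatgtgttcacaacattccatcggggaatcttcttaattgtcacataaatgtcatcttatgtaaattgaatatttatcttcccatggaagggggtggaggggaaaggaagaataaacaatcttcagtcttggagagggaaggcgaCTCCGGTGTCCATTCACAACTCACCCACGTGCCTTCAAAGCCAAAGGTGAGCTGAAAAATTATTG
CCR6: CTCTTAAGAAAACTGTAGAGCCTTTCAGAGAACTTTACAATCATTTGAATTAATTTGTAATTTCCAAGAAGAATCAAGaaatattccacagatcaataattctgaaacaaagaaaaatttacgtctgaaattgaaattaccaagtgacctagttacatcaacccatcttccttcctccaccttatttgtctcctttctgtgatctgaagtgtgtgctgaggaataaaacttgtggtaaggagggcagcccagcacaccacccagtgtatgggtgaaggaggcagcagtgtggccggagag
UBL5: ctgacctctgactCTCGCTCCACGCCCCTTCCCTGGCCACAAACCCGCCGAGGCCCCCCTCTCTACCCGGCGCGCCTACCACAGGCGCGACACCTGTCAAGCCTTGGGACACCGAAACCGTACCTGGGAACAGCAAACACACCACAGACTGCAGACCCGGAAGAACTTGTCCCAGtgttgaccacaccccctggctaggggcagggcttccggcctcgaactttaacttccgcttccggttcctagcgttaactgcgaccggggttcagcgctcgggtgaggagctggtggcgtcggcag
The DAOA window lay in a genistein region with a value of 42.34 and a mitoxantrone region with a value of 34.68, and 149 of its bases were common to both. TGFBR2 had values of 20.33 under genistein and 40.53 under mitoxantrone with 95 common bases, and JADE2 had 53.23 under genistein and 19.13 under mitoxantrone with 65. CCR6 had 23.67 under genistein and 17.18 under mitoxantrone with 78 common bases, and UBL5 had 16.93 under genistein and 22.04 under mitoxantrone with 162. G+C made up 31.3% of the DAOA window, 42.3% of TGFBR2, 40.3% of JADE2 and 40.0% of CCR6. The UBL5 window, at 64.0%, was close to the median of 63.0% over all promoter windows. UBL5 had the longest common stretch of the 5: the genistein region ran over chr19:9827681-9827842 and the mitoxantrone region over chr19:9827675-9827842, with the same end.

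The next 2 windows show the strongest promoter regions held by 1 list alone, with capitals for the bases inside that list's region. RPL6 (chr12:112411393-112411692, minus strand) encodes a protein of the large ribosomal subunit and was covered under genistein, and STPG4 (chr2:47155259-47155558, minus strand) was covered under mitoxantrone.
RPL6: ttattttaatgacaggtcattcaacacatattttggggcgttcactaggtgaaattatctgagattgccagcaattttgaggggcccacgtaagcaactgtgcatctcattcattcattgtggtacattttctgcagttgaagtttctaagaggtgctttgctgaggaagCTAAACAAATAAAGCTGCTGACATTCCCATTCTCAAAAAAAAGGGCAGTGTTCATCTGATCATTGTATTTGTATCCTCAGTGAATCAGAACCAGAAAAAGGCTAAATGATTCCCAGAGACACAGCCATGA
STPG4: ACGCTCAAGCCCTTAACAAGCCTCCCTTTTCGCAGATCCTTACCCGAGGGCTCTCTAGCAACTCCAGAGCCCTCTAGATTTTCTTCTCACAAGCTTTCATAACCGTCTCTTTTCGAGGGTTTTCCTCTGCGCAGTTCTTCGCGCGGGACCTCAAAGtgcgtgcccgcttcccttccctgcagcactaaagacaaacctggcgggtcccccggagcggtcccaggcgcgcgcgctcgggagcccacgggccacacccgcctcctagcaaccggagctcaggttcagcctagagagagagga
The RPL6 region had a value of 121.04, was joined from 2 genistein entries and covered 130 bases of the window, and no mitoxantrone region touched it. The STPG4 region had a value of 80.41, covered 156 bases, and no genistein region touched it. Both values were well above the list medians given next.

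Genistein gave more regions than mitoxantrone, and the regions themselves were alike in width and value. The ratio of region numbers was 2.05 (exact binomial 95% interval 2.04 to 2.06). The genistein regions covered 67.4 Mb, or 2.58% of the callable genome, and the mitoxantrone regions 33.3 Mb, or 1.27%. The callable genome is the 2615.6 Mb of autosomal 100 kb bins with a region in any of the 5 lists. The median width was 157 bp under genistein (quartiles 138 to 181) and 160 bp under mitoxantrone (139 to 185). The median deposited value was 13.21 under genistein (quartiles 8.46 to 21.53, highest 241.41) and 13.29 under mitoxantrone (8.42 to 22.04, highest 213.66). The unit of the value is not stated; low values fall on steps of 0.3242 in the mitoxantrone list and on 2 series of steps, 0.3586 and 0.3389, in the genistein list, as scaled whole reads would. Across 8 classes of value the ratio of region numbers stayed between 1.93 and 2.31, so the lists differed in number at low and at high values alike. Under the floor of 4 lay 5507 genistein regions and 2826 mitoxantrone regions. The lowest value kept was 4.05 under genistein and 4.20 under mitoxantrone, and the highest left out was 3.94 under genistein and 3.89 under mitoxantrone.

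The number of libraries differed between the lists too, so treatment and library number cannot be told apart in the 2.05-fold ratio. Before joining and at all values, the 2 genistein libraries together had 405718 autosomal entries and the 1 mitoxantrone library had 193147. Sorting genistein values below 30 by their step gave parts of 148824 and 148037 regions, beside 164174 mitoxantrone regions below 30. Each part was smaller than the mitoxantrone list below 30, but only the genistein list lost regions to the sorting. The part sizes thus cannot show how a whole genistein library compares with the mitoxantrone library. The parts leave out 25.4% of the genistein entries, those with values of 30 or more and those that fitted neither step or both, so they are not complete libraries.

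The lists were mostly made of different places. Of the genistein regions 18666, or 4.78% (4.72 to 4.85), overlapped a mitoxantrone region, and of the mitoxantrone regions 18559, or 9.75% (9.62 to 9.89), overlapped a genistein region. That left 371444 regions in the genistein list alone and 171762 in the mitoxantrone list alone. Shared bases came to 1.99 Mb, which was 2.95% of the genistein bases and 5.98% of the mitoxantrone bases. With mitoxantrone regions on 1.27% of the callable genome, genistein bases lay inside them 2.32 times as often as the genome average. Where regions overlapped they overlapped broadly: the median common stretch was 117 bp (quartiles 62 to 144), the region centres lay a median of 64.5 bp apart, and in 31.0% of overlaps the shorter region lay wholly inside the longer. Regions with no overlap lay a median of 4.30 kb from the nearest mitoxantrone region for genistein, with 15.4% within 1 kb. For mitoxantrone the median was 2.03 kb to the nearest genistein region, with 29.4% within 1 kb.

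The vehicle list overlapped both drugs to a similar degree. At the same floor of 4, genistein bases lay inside DMSO regions 2.21 times, inside etoposide regions 2.45 times and inside p-benzoquinone regions 1.66 times as often as the genome average, beside 2.32 times for mitoxantrone. Mitoxantrone bases lay inside DMSO regions 2.31 times, inside etoposide regions 2.53 times and inside p-benzoquinone regions 1.68 times as often. By the same measure the fold between the genistein parts themselves was 2.40, and it was 2.50 and 2.54 between each of them and mitoxantrone regions below 30. Of the regions in 1 genistein part 3.64% touched the other part, which covers 0.921% of the callable genome. Against mitoxantrone regions below 30, which cover 1.05%, the shares of the parts' regions were 4.21% and 4.17%. The genistein parts thus shared no larger fold of bases with each other than with mitoxantrone. The exposure times of the DMSO libraries are not given singly, and p-benzoquinone was given for 4 h.

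**Figure D1:**
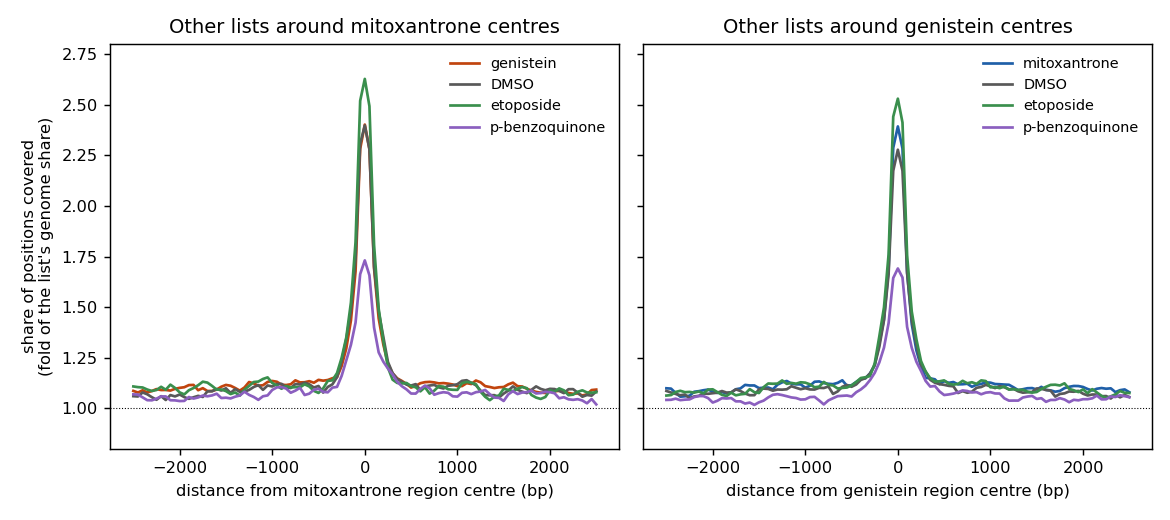
Share of positions covered by each other list, as a fold of that list's share of the callable genome, against distance in bp from the centres of mitoxantrone regions (left) and genistein regions (right). Genistein reaches 2.40 at mitoxantrone centres and mitoxantrone 2.39 at genistein centres, and etoposide is the highest line in both panels, at 2.63 around mitoxantrone centres and 2.53 around genistein centres.

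The excess was highest at the centres and fell away close to them, in profiles computed to 5 kb. Around mitoxantrone centres the genistein cover was 2.40 times its genome share at the centre, 1.31 times at 200 bp and 1.12 times at 500 bp. Between 2 and 5 kb it was 1.08 times. The DMSO profile reached the same height at mitoxantrone centres, 2.40, and the etoposide profile went higher, to 2.63.

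Shared regions were also more often present in another list. Genistein regions shared with mitoxantrone overlapped a DMSO region in 7.05% of cases (6.69 to 7.43), against 4.81% (4.75 to 4.88) of those in the genistein list alone. For etoposide regions the shares were 5.74% (5.41 to 6.09) of the shared and 3.61% (3.55 to 3.67) of the genistein-only regions, and for p-benzoquinone regions they were 5.23% (4.91 to 5.56) of the shared and 4.38% (4.32 to 4.45) of the genistein-only regions. The mitoxantrone regions behaved alike: 7.11% of those shared with genistein and 4.96% of those in the mitoxantrone list alone overlapped a DMSO region. Even so, 15584 of the shared genistein regions, or 83.5%, were in none of the other 3 lists, and 12 were in all of them.

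Over all widths, the share of regions that were shared changed little with the deposited value. Genistein regions with values of 4 to 6 were shared in 4.55% of cases (4.33 to 4.78) and those of 50 or more in 5.02% (4.64 to 5.42). Mitoxantrone regions were shared in 9.42% (8.99 to 9.87) of cases in the lowest class and in 10.5% (9.74 to 11.3) in the highest. Stronger regions were also wider, with medians of 138 bp in the lowest and 184 bp in the highest class under genistein and 141 and 190 bp under mitoxantrone. The share of bases that were common moved the other way, to 2.49% at values of 50 or more, against 3.09% at 4 to 6, for genistein. For mitoxantrone it was 5.32% at values of 50 or more and 6.30% at 4 to 6. Among regions of 140 to 180 bp the shared share was 3.82% (3.58 to 4.07) for genistein values of 30 or more and 4.63% (4.45 to 4.81) for values of 4 to 10. The same held for mitoxantrone regions of that width, with 8.10% (7.61 to 8.62) for values of 30 or more and 10.0% (9.68 to 10.4) for values of 4 to 10. In this width range mitoxantrone regions with values of 20 to 30 were shared in 8.17% (7.74 to 8.61) of cases, about as often as the strongest class.

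**Figure D2:**
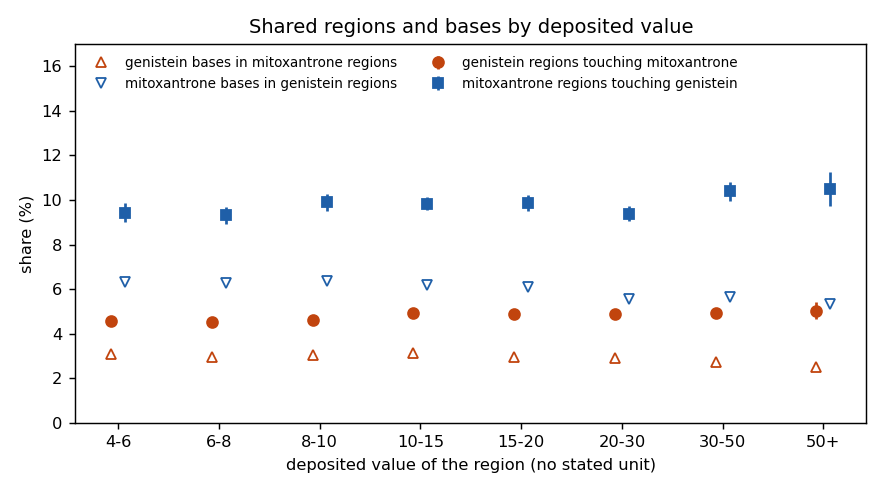
Share of regions that overlap the other list (filled symbols, with exact binomial 95% intervals) and share of bases that do (open symbols), in percent, by class of deposited value. Filled genistein circles stay between 4.52% and 5.02% and filled mitoxantrone squares between 9.31% and 10.5%, while both open series end lower than they begin.

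Values of overlapping regions were weakly related. Across the 18677 overlapping pairs the rank correlation of the deposited values was 0.13, and the genistein value was the higher one in 49.4% of pairs. The median value was 13.55 for shared and 13.21 for unshared genistein regions, and 13.61 for shared and 13.29 for unshared mitoxantrone regions. Shared regions were slightly wider in both lists, with medians of 164 bp against 157 bp under genistein and 166 bp against 159 bp under mitoxantrone.

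Some 10087 genistein regions, 2.59% of the list, were joined from several overlapping entries. They were shared with mitoxantrone in 7.23% of cases (6.73 to 7.75), whereas single entries were shared in 4.72% (4.65 to 4.79). Joined regions were wider, with a median of 238 bp against 156 bp. Among regions of 200 to 300 bp the shares were 7.18% (6.39 to 8.03) for joined and 6.28% (5.99 to 6.57) for single entries, with intervals that overlapped. Counted in bases, 3.59% of joined and 2.93% of single genistein regions were in mitoxantrone regions.

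The mitoxantrone list carries an input value for each region, which the genistein list does not. Input was 0 at 42530 mitoxantrone regions, or 22.3%, and 9.22% (8.94 to 9.50) of those were shared with genistein. The shared share was 10.3% for input above 0 and up to 0.3, 10.3% for 0.3 to 0.6, 9.30% for 0.6 to 1 and 8.95% (8.55 to 9.36) for 1 or more. Mean input was 0.450 at shared and 0.463 at unshared mitoxantrone regions. Input at shared regions was thus no higher than elsewhere in the list.

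The strongest places common to both drugs had values far above the medians. Of the overlapping pairs 2048 had both values at 20 or more, 556 at 30 or more, 183 at 40 or more and 51 at 50 or more. Ranked by the smaller value, the first lay in UNC5C, a netrin receptor gene, at chr4:95546360-95546586, with values of 91.14 under genistein and 128.71 under mitoxantrone. Its input value of 4.73 was also high for the list. Of the first 10, all but the DIP2B place had an input of at least 1.42, whereas 10.2% of all mitoxantrone regions had 1 or more. The median value of mitoxantrone regions with an input of 1 or more was 34.03. A region on chr11:17705689-17705755, 13.8 kb from MYOD1, had 111.52 under genistein and 77.13 under mitoxantrone. One on chr5:28087723-28087907, far from any protein-coding gene, had 74.62 under genistein and 123.51 under mitoxantrone.

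A further 3 of the first 10 lay inside genes. In DIP2B, at chr12:50700630-50700754, the values were 74.23 under genistein and 79.12 under mitoxantrone, with an input of only 0.23. In TTC7B, which encodes a partner of phosphatidylinositol 4-kinase, at chr14:90659291-90659473, they were 75.58 under genistein and 71.27 under mitoxantrone. In ELOVL7, a fatty acid elongase gene, at chr5:60821292-60821357, they were 70.17 under genistein and 64.49 under mitoxantrone. The remaining 4 lay between genes, the nearest being GIMAP2 at 14.4 kb (89.84 under genistein and 70.34 under mitoxantrone) and CADM1 at 71.0 kb (66.42 under genistein and 78.44 under mitoxantrone). Of the 10, the region on chr19:28079917-28080091 was the only one that overlapped another list at the floor of 4. It had 153.89 under genistein, 65.16 under mitoxantrone and 26.49 under etoposide.

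Both drugs spread their regions over the chromosomes in nearly the same proportions. Over the 22 autosomes the genistein density ran from 105 to 162 regions per Mb and the mitoxantrone density from 53.7 to 78.1. The rank correlation of the densities was 0.963, as a description of chromosomes that share libraries and mappable sequence. The gene-dense chromosome 19 had 107 genistein regions per Mb, 0.720 of the autosome mean, and 53.7 mitoxantrone regions per Mb, 0.738 of the mean. Chromosome 22 was as low, with 105 per Mb for genistein and 53.8 per Mb for mitoxantrone. After scaling to list size the ratio of genistein to mitoxantrone ran from 0.955 on chromosome 22 to 1.04 on chromosome 4 (1.02 to 1.06). Chromosome 4 was the only autosome whose interval did not include 1. Between 4.20% and 5.15% of the genistein regions of a chromosome were shared, and between 8.48% and 10.5% of the mitoxantrone regions.

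**Figure D3:**
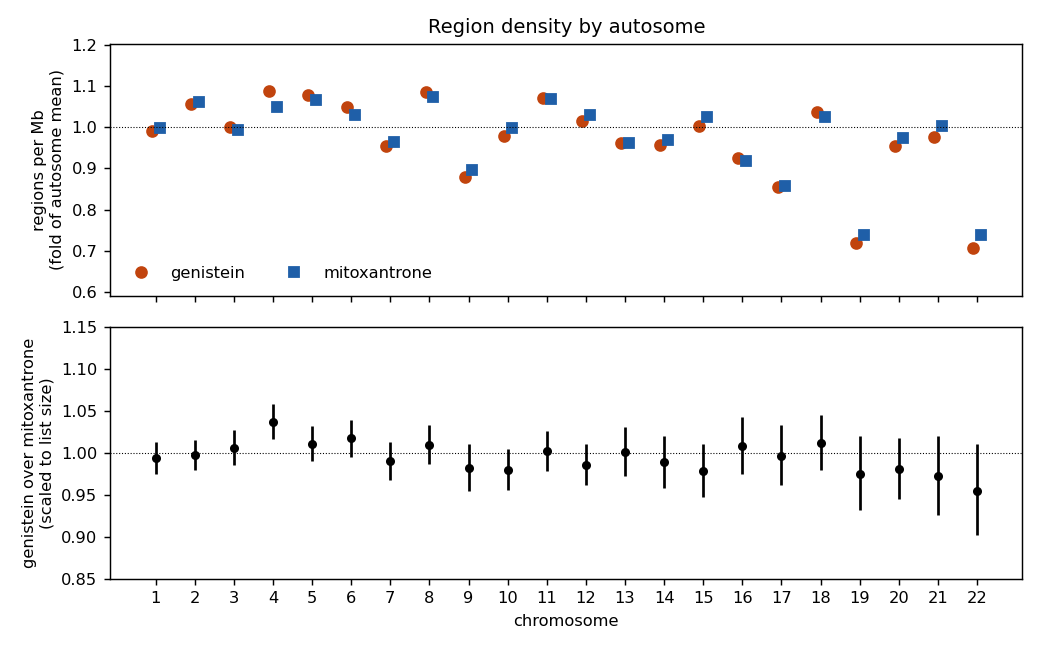
Region density of each autosome as a fold of the autosome mean (upper panel) and ratio of genistein to mitoxantrone regions after scaling to list size (lower panel), where bars are exact binomial 95% intervals. Chromosomes 19 and 22 are lowest for both drugs, at 0.706 to 0.740 of the mean, and every ratio lies between 0.955 and 1.04.

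On the scale of 1 Mb the lists were also high and low in the same stretches. A 1 Mb bin held a median of 153 genistein and 74 mitoxantrone regions over 2582 bins. The rank correlation of the bin counts was 0.683 for genistein with mitoxantrone, 0.425 for genistein with DMSO and 0.423 for mitoxantrone with DMSO. The genistein parts correlated at 0.559 with each other and at 0.577 and 0.599 with mitoxantrone. The part of depth and base composition in these correlations was not tested, and they are descriptions only. The titles of the genistein and mitoxantrone libraries also share a number whose meaning is not given. Chromosome 11 supplied most of the fullest bins: 104 to 105 Mb, around CASP4 and PDGFD, held 222 genistein and 98 mitoxantrone regions. The bin at 121 to 122 Mb, around SORL1, held 209 genistein and 123 mitoxantrone regions.

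Few bins favoured 1 drug. Of 2571 bins with at least 20 regions in either list, 5 (0.194%) had a scaled ratio of at least 1.5 and 6 (0.233%) a ratio at or below its inverse. The most tilted to genistein was at 159 to 160 Mb of chromosome 4, which RAPGEF2 touches, with 151 genistein and 42 mitoxantrone regions, a ratio of 1.75 (1.24 to 2.53). The genistein parts held 60 and 62 regions there, and these counts are among those that chose the bin. Next were 11 to 12 Mb of chromosome 11, around GALNT18, USP47 and DKK3, with 191 genistein and 57 mitoxantrone regions, and 1 to 2 Mb of chromosome 18, which no protein-coding gene touches, with 201 genistein and 61 mitoxantrone regions. The fourth was a bin of chromosome 7 that AUTS2 reaches into, with 172 genistein and 54 mitoxantrone regions. Toward mitoxantrone lay 1 to 2 Mb of chromosome 11, around BRSK2 and CTSD, with 45 genistein and 44 mitoxantrone regions, a ratio of 0.499 (0.322 to 0.774). Another was 26 to 27 Mb of chromosome 6, which holds the large histone gene cluster, with 83 genistein and 61 mitoxantrone regions, a ratio of 0.664 (0.471 to 0.940).

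Gene-poor bins were denser than gene-rich ones for both drugs. Bins with no gene centre held 163 genistein and 78.4 mitoxantrone regions per Mb. Bins with 21 or more gene centres held 117 genistein and 59.2 mitoxantrone regions per Mb. The drop was slightly steeper for genistein: the scaled ratio was 1.01 (0.996 to 1.03) in bins without a gene centre and 0.966 (0.944 to 0.989) in the gene-richest. Mean input at the mitoxantrone regions was 0.415 in the bins without a gene centre and 0.472 in the gene-richest.

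Both lists lay alike around genes. Gene bodies were covered 1.02 times as much as the genome average by both drugs. Within 1 kb of either gene end the cover was 0.874 of the genome average for genistein and 0.867 for mitoxantrone, beside 0.999 for DMSO. Start sites with 1 kb on each side were at 0.775 for genistein and 0.743 for mitoxantrone, and 3′ ends at 0.975 for genistein and 0.980 for mitoxantrone. Nearer to the start, within 250 bp of 15101 start sites, cover was 0.571 for genistein and 0.569 for mitoxantrone, beside 0.708 for DMSO. DNA more than 100 kb from a protein-coding gene was covered 1.06 times as much as average by genistein and 1.05 times by mitoxantrone. The DMSO list covered it 0.965 times as much.

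At promoters both drugs followed base composition, and so did the vehicle list. A window of 300 bp could be placed for 15101 of 19126 protein-coding genes. Genistein regions touched 623 of these windows (4.13%) and mitoxantrone regions 308 (2.04%). Of these, 36 were touched by both, 587 by genistein alone and 272 by mitoxantrone alone. In 31 of the 36 the regions shared bases inside the window, and in 16 they shared at least 50. The median G+C content was 55.3% in windows touched by genistein and 57.0% in those touched by mitoxantrone, against 63.0% in all windows. The median number of CpG dinucleotides was 12 for genistein and 11 for mitoxantrone, against 22 in all windows. The windows were divided by G+C content into 5 groups of equal size. In the group with the least G+C, genistein touched 7.71% (6.79 to 8.72) and mitoxantrone 3.77% (3.12 to 4.52). In the group with the most, genistein touched 0.629% (0.379 to 0.981) and mitoxantrone 0.364% (0.182 to 0.651). The DMSO list touched 4.53% of the windows in the group with the least G+C and 0.265% in the group with the most. In each of the 5 groups the interval of the scaled ratio of the 2 drugs included 1.

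**Figure D4:**
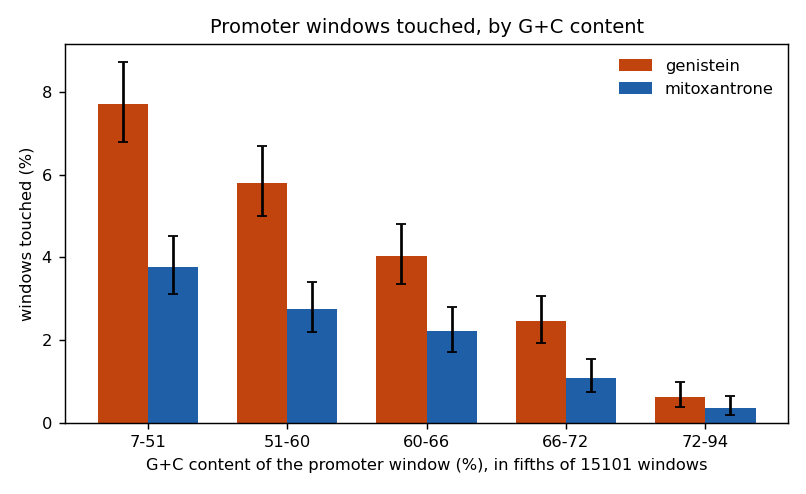
Percent of promoter windows touched by a genistein region (left bar of each pair) and by a mitoxantrone region (right bar), in 5 groups of windows by G+C content, with exact binomial 95% intervals. The leftmost group, with the least G+C, is at 7.71% for genistein and 3.77% for mitoxantrone, and the rightmost at 0.629% for genistein and 0.364% for mitoxantrone.

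The hexamer TATAAA, searched on the strand of the gene, stood in 14.9% (12.2 to 18.0) of the windows touched by genistein and in 12.3% (8.88 to 16.5) of those touched by mitoxantrone, against 9.71% of all 15101 windows. As the touched windows are also richer in A and T, the match is a description of their letters only.

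For single genes, regions were counted from 2 kb before to 2 kb after the gene body, and the ratio of genistein to mitoxantrone counts was scaled to list size. Of 18162 genes measured, 4973 had at least 10 regions in either list. Among these, 382 (7.68%) had a scaled ratio of at least 2 and 106 (2.13%) a ratio of 0.5 or less. Of the genes, 75 (1.51%) had an interval wholly above 1 and 61 (1.23%) an interval wholly below 1. Genes entered unequally: 4935 genes reached 10 regions through genistein and 2533 through mitoxantrone. With at least 20 regions in the lists together, a filter chosen after seeing the data, 125 genes were at 2 or more and 76 at 0.5 or less. Among genes with 10 to 19 regions in both lists together, 12.0% had a ratio of at least 2 and 11.9% of 0.5 or less. With 20 to 39 regions the shares were 5.70% and 3.49%. At 80 or more regions together, 1 gene of 639 had a ratio of at least 2 and none was at 0.5 or less. Of the genes with a ratio of at least 2, 188 of 381 that could be compared in the parts had it in both genistein parts, and 46 of the 106 low genes were low in both parts. The parts' counts are among those that chose these genes, and both parts were set against the same mitoxantrone counts. These numbers are therefore no independent check. The median log2 ratio over the 4973 genes was 0.08, and the rank correlation of the counts was 0.812 over the 18162 genes measured.

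The 8 highest ratios were those of genes with 1 or 2 mitoxantrone regions. Another 20 genes with at least 10 genistein regions had no mitoxantrone region. Their 0 was set to the floor of 3 regions, which gives a lower ratio than a count of 1 would. This ranking therefore leaves them out, and the same floor applied where genes with a ratio of at least 2 were counted. SEPTIN10 (chr2:109542799-109613966), which encodes a cytoskeletal GTPase of the septin family, had 19 genistein regions and 1 mitoxantrone region, a ratio of 9.27 (1.47 to 385). CCDC50 and ELMOD1 each had 18 genistein regions and 1 mitoxantrone region, and PTAR1 had 17 genistein and 1 mitoxantrone region. SEC14L1 (chr17:77088685-77217101) had 29 genistein and 2 mitoxantrone regions, a ratio of 7.07 (1.79 to 61.2). ADAP1, ADCY10, a soluble adenylyl cyclase gene, and EP300, a histone acetyltransferase gene, each had 14 genistein regions and 1 mitoxantrone region, a ratio of 6.83 (1.04 to 289). All 8 had a ratio above 3 in both genistein parts, whose counts are among those that chose these genes. The last 3 had lower limits near 1.

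At the other end TRIT1 (chr1:39838110-39883511), a tRNA-modifying enzyme gene, had 4 genistein and 11 mitoxantrone regions, a ratio of 0.177 (0.0412 to 0.599). KDM2B (chr12:121408461-121582279), a histone demethylase gene, had 10 genistein and 18 mitoxantrone regions, a ratio of 0.271 (0.112 to 0.619). MYH14, a non-muscle myosin gene, and SPTLC2, which encodes a subunit of serine palmitoyltransferase, each had 8 genistein and 14 mitoxantrone regions. TMEM178A had 7 genistein and 13 mitoxantrone regions, BICRA and TRAK2 each had 7 genistein and 12 mitoxantrone regions, and C8orf89 had 6 genistein and 11 mitoxantrone regions. Each of these 8 genes lay below 0.5 in both genistein parts too, whose counts are among those that chose them. DMSO regions in these 8 genes numbered 3 to 9, and in the 8 genes tilted to genistein they numbered 1 to 11.

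**Figure D5:**
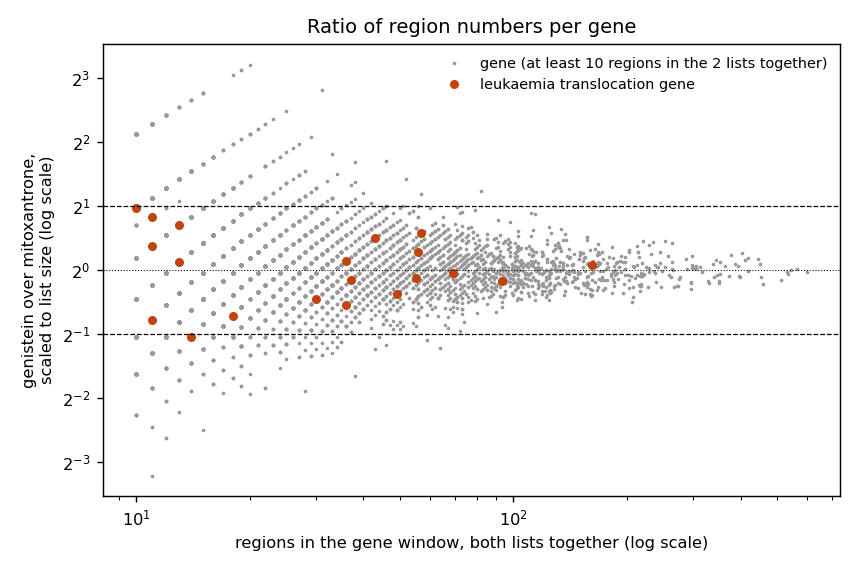
Ratio of genistein to mitoxantrone regions per gene, scaled to list size (log axis), against the number of regions in both lists together (log axis), for genes with at least 10 regions in both lists together; orange points are leukaemia translocation genes and dashed lines mark ratios of 2 and 0.5. A count of 0 is drawn at the floor of 3 regions. The cloud narrows as the number of regions grows, and no gene with 80 or more regions lies at or below 0.5.

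The genes with the most shared places were long ones, and their ratios were close to 1. DLG2, a synaptic scaffold gene of 2173 kb, had 367 genistein and 179 mitoxantrone regions, 20 of the genistein regions being shared, with a ratio of 1.00 (0.834 to 1.20). CSMD1 had 355 genistein and 176 mitoxantrone regions with 18 shared, and LRP1B, a lipoprotein receptor gene, had 331 genistein and 180 mitoxantrone regions with 16 shared, a ratio of 0.897 (0.746 to 1.08). CNTN5, a neural adhesion gene, had 294 genistein and 126 mitoxantrone regions, EYS had 310 genistein and 141 mitoxantrone regions, and AGBL4 had 248 genistein and 116 mitoxantrone regions, each with 16 shared. Common fragile site genes, which are long genes where chromosomes break under replication stress, had 3836 genistein and 1838 mitoxantrone regions over 16 genes, a ratio of 1.02 (0.963 to 1.08). None of the 16 passed 2-fold in either direction, and among all genes with 80 or more regions 1 of 639 did. DAB1, a reelin pathway adaptor gene, had 287 genistein and 125 mitoxantrone regions.

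Leukaemia translocation genes took regions from both drugs in proportion to list size. Of 25 genes on the list 24 were measured, and MYH11 was not analysed here. The 24 held 567 genistein and 274 mitoxantrone regions, a ratio of 1.01 (0.872 to 1.17). Of the 15 with at least 10 regions in either list, 0 had a ratio of at least 2 and 0 a ratio of 0.5 or less, with CBFB taken at its bound. The shares over all genes were 7.68% and 2.13%. Their median log2 ratio was -0.04, against 0.08 over all 4973 genes. Shared regions numbered 27, or 4.76% of the genistein regions there, beside 4.81% over all genes.

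KMT2A (chr11:118436492-118526832), the histone methyltransferase gene most often broken in leukaemias after TOP2 poisons, had 18 genistein and 12 mitoxantrone regions, a ratio of 0.732 (0.334 to 1.67). Both genistein parts held 8. It had 2 shared places, chr11:118486391-118486517 with values of 28.32 under genistein and 19.45 under mitoxantrone, and chr11:118506795-118506846 with 17.95 under genistein and 8.10 under mitoxantrone. Per kb it was the densest of the group, with 0.318 regions over both lists together. Among its fusion partners, MLLT3 had 46 genistein and 23 mitoxantrone regions with 3 shared. The strongest of these for genistein, at chr9:20598405-20598562, had 63.13 under genistein and only 6.15 under mitoxantrone. MLLT10 had 30 genistein and 19 mitoxantrone regions with 4 shared, and all 4 had the higher value under mitoxantrone, for example 17.93 under genistein and 31.12 under mitoxantrone at chr10:21539126-21539196. AFF1 had 40 genistein and 16 mitoxantrone regions and AFDN had 25 genistein and 11 mitoxantrone regions.

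PML and RARA, which are fused in acute promyelocytic leukaemia, had few regions under either drug. PML had 7 genistein and 7 mitoxantrone regions, a ratio of 0.488 (0.146 to 1.63), and RARA had 9 genistein and 4 mitoxantrone regions, a ratio of 1.10 (0.306 to 4.88). PML had 2 shared places, of which chr15:74045215-74045370 had values of 34.57 under genistein and 36.31 under mitoxantrone. RUNX1, a blood transcription factor gene, had 36 genistein and 19 mitoxantrone regions. Its single shared place, chr21:34906274-34906444, was the strongest of the group, with 76.59 under genistein and 43.76 under mitoxantrone at an input of 2.36. ETV6 had 43 genistein and 14 mitoxantrone regions, a ratio of 1.50 (0.804 to 2.97). MECOM had 111 genistein and 51 mitoxantrone regions. CBFB, a partner subunit of RUNX1, had 11 genistein regions and no mitoxantrone region. With the 0 set to a floor of 3 regions, its ratio was 1.79 after scaling. The exact lower limit of its ratio, from the counts alone, was 1.22.

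The genes of the fusion that K562 carries were thinly covered by both drugs. BCR had 7 genistein regions and 1 mitoxantrone region, ABL1 had 4 genistein and 3 mitoxantrone regions, and NUP214, which lies next to ABL1, had 1 genistein and 1 mitoxantrone region. Per kb and over both lists together these came to 0.0565 for BCR, 0.0392 for ABL1 and 0.0177 for NUP214, against 0.242 for MLLT3 on the same chromosome as ABL1. The DMSO list held 3, 2 and 1 regions in them.

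Genes of TOP2 itself and of the repair of its adducts had 318 genistein and 126 mitoxantrone regions over 20 genes, a ratio of 1.23 (0.999 to 1.53). Of the 13 with at least 10 regions in either list, 1 had a ratio of at least 2 and none of 0.5 or less, beside 7.68% and 2.13% over all genes. Their median log2 ratio was 0.49, against 0.08 over all genes. The gene past 2-fold was BRCA1, with 15 genistein and 3 mitoxantrone regions, a ratio of 2.44 (0.690 to 13.1). It had at least 10 regions under genistein alone. TOP2A, which encodes the captured enzyme, had 5 genistein and 2 mitoxantrone regions, and its paralogue TOP2B had 16 genistein and 5 mitoxantrone regions. MRE11, a nuclease gene, had 26 genistein and 9 mitoxantrone regions, a ratio of 1.41 (0.640 to 3.42), XRCC5, which encodes Ku80, had 23 genistein and 8 mitoxantrone regions, and NBN, from the same complex as MRE11, had 12 genistein and 5 mitoxantrone regions. The intervals of BRCA1, MRE11, XRCC5 and NBN all included 1.

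Genistein acts on oestrogen receptors and tyrosine kinases, and the summed ratios of both gene groups had intervals that included 1. Over members with at least 10 regions in either list, the median log2 ratio was 0.44 for oestrogen response genes and 0.02 for tyrosine kinase genes. Over all genes it was 0.08. Oestrogen response genes had 259 genistein and 104 mitoxantrone regions, a ratio of 1.22 (0.964 to 1.54), and 0 of 7 passed 2-fold in either direction, beside 7.68% and 2.13% over all genes. The receptor gene ESR1 had 78 genistein and 37 mitoxantrone regions, ESR2 had 25 genistein and 7 mitoxantrone regions, and the progesterone receptor gene PGR had 25 genistein and 9 mitoxantrone regions with 4 shared. KRT19 had 3 genistein regions and no mitoxantrone region, at the floor. Tyrosine kinase genes had 555 genistein and 282 mitoxantrone regions, a ratio of 0.960 (0.830 to 1.11), and 0 of 13 passed 2-fold, beside the same shares over all genes. KIT, the stem cell factor receptor gene, had 19 genistein and 8 mitoxantrone regions, CSF1R had 15 genistein and 4 mitoxantrone regions, and FGFR3 had 4 genistein and 2 mitoxantrone regions.

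Multidrug transporter genes include the exporters of mitoxantrone. The 9 measured held 189 genistein and 73 mitoxantrone regions, a ratio of 1.26 (0.959 to 1.68), and ABCC1 was not analysed here. Of 7 with at least 10 regions in either list 1 had a ratio of at least 2, beside 7.68% over all genes, and it had at least 10 regions under genistein alone. It was ABCG2, which encodes a mitoxantrone exporter, with 19 genistein and 3 mitoxantrone regions, a ratio of 3.09 (0.910 to 16.3). ABCB1, which encodes P-glycoprotein, had 42 genistein and 13 mitoxantrone regions, ABCG1 had 19 genistein and 8 mitoxantrone regions, and ABCC5 had 18 genistein and 9 mitoxantrone regions.

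Genes that K562 expresses and genes of other cell types had too few regions to tell the drugs apart. Erythroid and K562-expressed genes had 52 genistein and 25 mitoxantrone regions over 22 genes, a ratio of 1.01 (0.618 to 1.71), and 8 had no region in either list. The fetal globin gene HBG1 had 2 genistein regions and 1 mitoxantrone region, the transcription factor gene TAL1 had 7 genistein and 2 mitoxantrone regions, and the anion exchanger gene SLC4A1 had 6 genistein and 2 mitoxantrone regions. Hepatocyte marker genes had 62 genistein and 21 mitoxantrone regions, a ratio of 1.44 (0.866 to 2.49). Among them FGG, a fibrinogen chain gene, had 4 genistein and 3 mitoxantrone regions, APOB had 10 genistein and 3 mitoxantrone regions, and APOC3 had 2 genistein and no mitoxantrone regions. T-cell and B-cell marker genes had 109 genistein and 46 mitoxantrone regions, a ratio of 1.16 (0.812 to 1.67). Of the 4 with at least 10 regions in either list, 2 had a ratio of at least 2, beside 7.68% over all genes, and both had at least 10 regions under genistein alone. They were CD28, a T-cell costimulatory receptor gene, with 10 genistein and 2 mitoxantrone regions, and ZAP70, a T-cell kinase gene, with 11 genistein and 1 mitoxantrone region. MS4A1, which encodes CD20, had 6 genistein and 2 mitoxantrone regions, and CD79A, a B-cell receptor component gene, had 2 genistein and 1 mitoxantrone region.

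Short, highly copied or clustered genes held few regions. Cytosolic ribosomal protein genes had 29 genistein and 17 mitoxantrone regions over 19 genes, a ratio of 0.832 (0.442 to 1.61), with RPL5 at 4 genistein and 2 mitoxantrone regions, RPS12 at 3 genistein and 1 mitoxantrone region and RPL23A at 3 genistein and no mitoxantrone regions. RPS18 was not analysed here. Replication-dependent histone genes had 19 genistein and 11 mitoxantrone regions over 20 genes, a ratio of 0.843 (0.381 to 1.96). H3C3, H2BC3 and H2AC4 each had 2 genistein regions and 1 mitoxantrone region, and the windows of neighbouring histone genes overlap. Olfactory receptor genes had 39 genistein and 12 mitoxantrone regions over 16 genes, a ratio of 1.59 (0.813 to 3.33), with OR8D1 at 4 genistein and 3 mitoxantrone regions, OR6A2 at 4 genistein and 1 mitoxantrone region and OR13C8 at 2 genistein and 2 mitoxantrone regions. OR11A1, OR12D2, OR2J3 and OR2W1 were not analysed here. The p53 target genes had 97 genistein and 45 mitoxantrone regions, a ratio of 1.05 (0.731 to 1.53). TIGAR, a glycolysis regulator gene, had 13 genistein and 4 mitoxantrone regions, AEN had 6 genistein and 4 mitoxantrone regions, and PLK3 had no genistein region and 3 mitoxantrone regions.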

How the data were processed

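TOP2A-bound DNA of K562 cells was sequenced as single 50-base reads, per the labels' protocols. The submitters' processing notes name hg38 as the build, and Bowtie2 (2.1.0) with SAMtools (0.1.19) as tools. How regions were called is not given in the sources used here. For each treatment the authors deposited 1 list of regions, with starts, ends and a signal per region of unstated unit. The mitoxantrone list is named in no sample description and was matched to the single mitoxantrone library by its treatment. Only the deposited mitoxantrone list also holds an input signal, a log2 of treated over input, whose lowest finite value is 4.00, and, where input is 0, a p-value; the log2 values and p-values were not used otherwise. The depth of the libraries is unknown, since the files hold called regions. By the value steps the lowest deposited value, which lies under the floor of 4, stood at 11 steps in each genistein part and 12 in the mitoxantrone list. The library titles share a number whose meaning is not given.

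Overlapping genistein entries were joined, taking the highest value, and starts were converted to 1-based positions. Overlap was 1 bp or more. Genes and promoter sequences came from RefSeq tables of GRCh38.p14; 15101 promoter windows matched a callable gene. A gene was measured where at least 50% of its window was callable. Ratios were scaled to the 2 list sizes, and exact binomial 95% intervals cover counting error only, as amplified reads with no molecular identifier can be copies of 1 molecule. Counts of 0 were set at a floor of 3 regions per list.

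The members, the gene lists and the comparisons were chosen with earlier results of these data known. Named genes are the 8 highest and 8 lowest ratios, the 6 genes with most shared regions, the genes at the 10 strongest shared regions, the measured leukaemia translocation genes and the 3 densest members of each other list. A few genes under this rule are not reported here. BRCA1, TOP2A, TOP2B, ESR1, ABCG2, ZAP70 and the genes of the named 1 Mb bins and promoter windows fall outside that rule and were named after their values were seen. Other value floors, overlap minimums, gene windows and library parts were tried as alternatives. Calculations ran in Python (3.11.15) using scipy (1.17.1), pandas (2.3.3) and numpy (2.4.6), figures were drawn with matplotlib (3.10.9), and the steps were tested on simulated data.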

Additional observations from a re-analysis of the deposited data

Results flagged for a closer look

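The X chromosome was outside the comparison and held regions of both lists: 19327 for genistein and 9566 for mitoxantrone at values of at least 4. Scaled to list size the ratio was 0.986. Of the genistein regions on the X, 882 (4.56%) overlapped a mitoxantrone region, and 9.18% of the mitoxantrone regions there overlapped a genistein region. These shares lay within the ranges of the single autosomes. They are listed because they come from data that the comparison did not use.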

How the results depend on the processing

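Of 77 values recomputed under alternatives, 47 stayed within 1.5 times the count or within the counting interval and 30 moved. The ratio of region numbers, 2.05 as reported, was 2.02 with values of at least 8, 2.10 with genistein entries unjoined and 2.64 with mitoxantrone regions of input above 0 only. Against the whole mitoxantrone list the genistein parts gave 0.782 and 0.778, because they hold fewer regions. The share of genistein regions overlapping mitoxantrone, 4.78%, was 4.41% with values of at least 6, 3.93% with at least 8, 4.85% with all values, 4.85% in genistein part 1 and 3.78% with input above 0. It was 3.83% when 50 bp had to be common and 2.40% when 50% of both regions had to be. The share of mitoxantrone regions overlapping genistein, 9.75%, was 9.02% with values of at least 6, 7.89% with at least 8, 3.79% and 3.74% against the genistein parts and 9.91% with input above 0. It was 7.83% with 50 bp common and 4.92% with 50% of both. Genes with a ratio of at least 2, 382 as reported, numbered 137 and 110 in the genistein parts and 82 with at least 20 regions in either list. With at least 20 regions in the lists together, an alternative chosen after seeing the data, they numbered 125, beside 76 at 0.5 or less. Genes at 0.5 or less, 106 as reported, numbered 216 and 199 in the parts and 6 with at least 20 regions in either list, so the split between high and low genes turned round in the parts. Against the parts the whole mitoxantrone list was the larger one. With the parts 2758 and 2739 genes were tested, of which 2533 had at least 10 mitoxantrone regions. The median value of shared over unshared genistein regions, 1.03 as reported, was 1.03 and 1.00 in the parts, 1.06 with input above 0 and 0.977 with 50% of both common, where it turned round. Where no construction is named, the cause was not tested. The difference at gene ends (log2 0.01, range -0.02 to 0.03 over 9 alternatives) and on chromosome 19 (log2 -0.04, range -0.04 to 0.0017 over 8) stayed within its counting interval. No paired analysis was possible because the deposited lists pool the libraries and hold no value per replicate; for the same reason no replicate could be left out. The lists cannot separate drug, dose and library number, since each treatment has 1 list.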

Other observations

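Some stretches were nearly empty in both lists. The bin at 21 to 22 Mb of chromosome 9, which holds CDKN2A and the interferon alpha genes, had 10 genistein regions and 1 mitoxantrone region, against medians of 155 genistein and 75 mitoxantrone regions over the 2436 fully callable bins. The bins at 24 to 25 Mb and 30 to 31 Mb of the same chromosome had 13 genistein and 9 mitoxantrone regions, and 14 genistein and 10 mitoxantrone regions. The DMSO list held 3, 1 and 5 regions in the 3 bins, and mean input at the mitoxantrone regions was 0 in each, against a median of 0.459 over the full bins. K562 cells are known to lack CDKN2A. Copy number was not measured in these files, and its part in these counts was not tested.

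On chromosome 22 the bin at 21 to 22 Mb had 13 genistein and 9 mitoxantrone regions in 8 callable parts of 100 kb, and mean input there was 2.31. The bin at 22 to 23 Mb had 11 genistein and 7 mitoxantrone regions, also in 8 callable parts, with mean input of 0.740. In the mitoxantrone list every region with an input above 0 had a value of at least 16.0 times its input. The genistein list has no input column, so whether the same limit shaped it was not tested. The bins that hold ABL1 and NUP214 on chromosome 9 had 90 genistein and 44 mitoxantrone regions and 119 genistein and 63 mitoxantrone regions, with mean input of 0.378 and 0.481.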
